A study of Homo sapiens with 24 samples.

Results

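MHC class I antigen presentation was followed through 9 genes in RNA-seq libraries of U87-T cells, the human glioblastoma line U87 transduced with the telomerase gene TERT. The genes were listed by name for their role in the pathway: the heavy chains HLA-B, HLA-C, HLA-E and HLA-F, the light chain B2M, the peptide transporter genes TAP1 and TAP2, the loading factor TAPBP (tapasin) and the regulator NLRC5. All 9 of 9 were found among the 57736 genes counted, and all 9 passed the filter on low counts in both series of libraries. The 24 libraries form 2 series of 12. The DAXX series holds WT cells and DAXX_KO cells, and the ATRX series holds its own WT libraries and ATRX_KO cells. Each genotype was sampled without drug (control) and with etoposide, a topoisomerase II poison that breaks DNA, in 3 libraries per group. WT cells (sgCon) carried an empty Cas9 vector, and each knockout line was 1 single-cell clone with features of alternative telomere lengthening, so that a knockout and its clone cannot be told apart. The dose and duration of etoposide for these libraries were not given in the sources used here. The 6 DAXX_KO libraries are called DAXX KO in their titles and ATRX KO in their genotype tag, and the titles were followed.

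MHC class I molecules sit on the surface of most nucleated cells and show peptides cut from the cell's own proteins to CD8+ T cells and NK cells. A polymorphic heavy chain pairs with B2M in the endoplasmic reticulum, the TAP1 and TAP2 proteins together pump in peptides from the cytosol, and tapasin holds the empty heavy chain beside the transporter until a peptide is bound. Transcription of these genes is known to be driven by NLRC5 with the RFX and NF-Y complexes, by NF-kappa B and by interferon-induced factors, and tumours often lower it.

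Libraries held between 6928950 and 13298557 counts. They were made from the 3′ ends of transcripts, so that a level in CPM, a library's counts rescaled to a common total, does not rise with gene length. Between 38 and 106 counts were read per library at HLA-F, between 41 and 149 at NLRC5, and between 7582 and 24300 at B2M. DAXX lay at 37.2, 34.3 and 33.5 CPM in the WT control libraries of its series and at 6.37, 4.63 and 6.66 CPM in the DAXX_KO control libraries. With etoposide the DAXX_KO libraries rose to 7.25, 11.3 and 11.2 CPM of DAXX, below the 20.8, 21.8 and 22.5 CPM of WT. ATRX lay at 187, 191 and 196 CPM in the ATRX-series WT control libraries and at 87.5, 78.1 and 75.7 CPM in ATRX_KO. The targeted gene was thus lower in each knockout, while tags from the transcript's end do not show whether a protein was made. Of 6 markers of glioblastoma lines, VIM (1209 to 6298 CPM), CD44, FN1 and NES were read in all 24 libraries, whereas GFAP did not pass 6 counts in any library and SOX2 reached 0 in some. Without drug 4 of the 5 tested were lower and 1 higher in DAXX_KO, beside 26.7% and 26.9% of all genes. In ATRX_KO 5 of 5 were lower, beside 20.9% of all genes. The sum of the markers went with etoposide from 6784 to 7662 CPM down to 3028 to 3294 CPM in DAXX-series WT cells. In those of the ATRX series it went from 6792 to 7371 CPM down to 2646 to 2767 CPM. It went from 5190.0 to 5508 CPM down to 2222 to 3118 CPM in DAXX_KO and from 4492 to 6173 CPM down to 2543 to 3075 CPM in ATRX_KO. The part of this in the results was not tested. Leukocytes carry much MHC class I: of their 6 markers, summed at 19.1 to 42.2 CPM per library, CD68 gave 17.8 CPM or more, PTPRC reached at most 1.75 CPM, and CD3E and CD14 at most 3 and 6 counts. The leukocyte sum was higher with etoposide in WT cells of both series and in both knockouts without overlap, and its part in the results was not tested. It was 24.6 to 28.3 CPM without drug and 39.6 to 42.0 CPM with it in DAXX-series WT cells, and 23.1 to 24.2 and 30.0 to 35.5 CPM in DAXX_KO. In the ATRX series it was 29.6 to 31.5 and 37.02 to 42.2 CPM in WT cells and 19.1 to 23.6 and 32.7 to 35.6 CPM in ATRX_KO. VWF and CDH5, markers of endothelium, were at most at 14 and 3 counts.

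The promoters of HLA-B, B2M, TAP1 and TAPBP are shown because these genes rose together with etoposide or in DAXX_KO. Entries for 7 of the 9 genes were found in the set of 35116 RefSeq promoters searched, which held none for HLA-E and NLRC5. They are on build GRCh38.p14, from 250 bases before the start of transcription to 50 after it. Capitals mark matches on either strand to the core of the interferon-stimulated response element (ISRE, letters GAAANNGAAA), a kappa B core (GGGNNTTCC), the X2 core bound by CREB and ATF proteins (TGACG) and the Y box core of NF-Y (CCAAT). Overlapping matches run together.
HLA-B, chr6:31357130-31357429, minus strand: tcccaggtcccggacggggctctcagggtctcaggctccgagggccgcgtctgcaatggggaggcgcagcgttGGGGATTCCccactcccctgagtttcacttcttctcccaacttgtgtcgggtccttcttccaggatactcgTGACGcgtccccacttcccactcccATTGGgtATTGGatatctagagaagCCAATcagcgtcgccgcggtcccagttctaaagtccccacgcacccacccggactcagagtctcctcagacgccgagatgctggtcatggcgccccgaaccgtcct
B2M, chr15:44711267-44711566, plus strand: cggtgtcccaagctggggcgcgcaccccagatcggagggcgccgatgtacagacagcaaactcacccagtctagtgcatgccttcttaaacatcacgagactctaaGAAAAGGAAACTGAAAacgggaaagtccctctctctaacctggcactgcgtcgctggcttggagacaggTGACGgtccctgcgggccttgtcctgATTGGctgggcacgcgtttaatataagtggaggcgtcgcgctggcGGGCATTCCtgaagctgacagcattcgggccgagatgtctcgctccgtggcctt
TAP1, chr6:32853655-32853954, minus strand: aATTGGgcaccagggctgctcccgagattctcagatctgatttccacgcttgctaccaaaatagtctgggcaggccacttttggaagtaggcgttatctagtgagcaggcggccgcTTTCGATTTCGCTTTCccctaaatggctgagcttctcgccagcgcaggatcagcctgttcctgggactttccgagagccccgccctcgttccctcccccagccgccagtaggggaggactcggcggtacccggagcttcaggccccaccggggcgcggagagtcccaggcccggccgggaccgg
TAPBP, chr6:33314029-33314328, minus strand: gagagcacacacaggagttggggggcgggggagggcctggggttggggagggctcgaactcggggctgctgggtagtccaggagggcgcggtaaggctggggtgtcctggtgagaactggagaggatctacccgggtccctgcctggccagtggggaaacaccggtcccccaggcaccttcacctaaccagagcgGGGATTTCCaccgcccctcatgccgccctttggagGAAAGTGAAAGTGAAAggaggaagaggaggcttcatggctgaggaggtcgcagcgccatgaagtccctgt

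An ISRE core was matched in the windows of B2M, TAP1, TAPBP, TAP2 and HLA-F, and 3.57% of the 35116 promoters in the table hold it. The kappa B core was matched at HLA-B, B2M and TAPBP (6.58% of promoters), the X2 core at HLA-B, HLA-C, B2M and TAP2 (24.6%), and the Y box core at HLA-B, HLA-C, HLA-F, B2M and TAP1 (34.6%). HLA-B held the Y box core 3 times and HLA-C 4 times. The decamer that makes up p53 response elements, searched by its consensus, was matched in none of the windows of these genes and in 6.63% of promoters. A second TAP1 entry, at chr6:32852712-32853011, held no match to any of them. A match describes letters only, and no match says only that these letters are not in the window.

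The effect of losing DAXX was asked by setting DAXX_KO against WT. Without drug, 6 of the 9 genes were higher in DAXX_KO and 0 of 9 were lower: HLA-B, HLA-E, B2M, TAP1, TAPBP and NLRC5 (edgeR's quasi-likelihood test, adjusted p under 0.05, here a call). Over all 15247 genes tested, 26.9% were called higher and 26.7% lower. Here and in the comparisons below, wherever 0 of 9 genes were called in a direction by edgeR, 0 had an unadjusted p under 0.05 in that direction, and 0 were called by DESeq2 where it was run. The median log2 fold change of the 9 genes was 0.51, beside 0.02 for all genes. At HLA-B, B2M and TAP1 the WT control libraries also differed between the series, as given below. With etoposide 4 of 9 were higher in DAXX_KO (HLA-B, HLA-E, TAPBP and NLRC5) and TAP1 was lower, where 27.7% of all genes were called higher and 25.1% lower. The median of the 9 was then 0.43, beside 0.01 for all genes.

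The effect of losing ATRX was asked in the same way. Without drug HLA-B, HLA-E and NLRC5 were higher in ATRX_KO than in WT, and HLA-F and TAP2 were lower (3 and 2 of 9), beside 20.8% and 20.9% of the 16371 genes tested. With etoposide HLA-E and TAPBP were higher and TAP1 and TAP2 lower (2 and 2 of 9), beside 23% and 22.9% of all genes, so that the shares called were near those of all genes. The median log2 fold change of the 9 genes was 0.25 without drug and -0.09 with it, beside 0.02 and 0.01 for all genes.

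**Figure D1:**
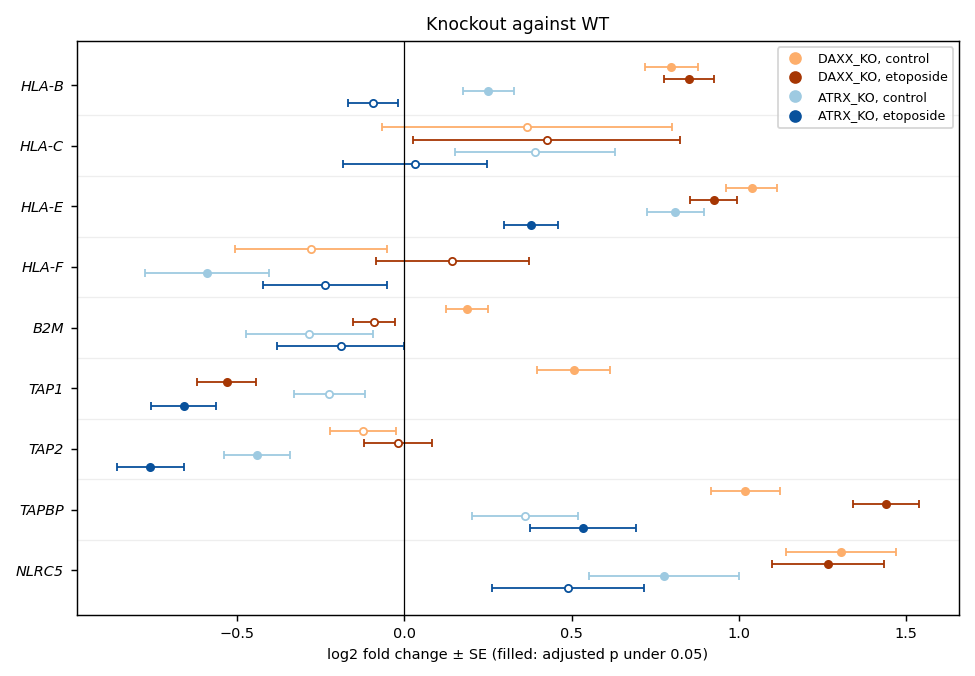
Log2 fold change of each MHC class I gene in the knockout against WT of the same series, with the standard error, for control and etoposide-treated cells (3 libraries per group). Filled points passed an adjusted p of 0.05 (edgeR). HLA-E was filled and to the right of 0 in all 4 comparisons, whereas TAP1 crossed from 0.51 to -0.53 between the control and etoposide comparisons of DAXX_KO.

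The response to DNA damage was asked by setting etoposide against control within each genotype. HLA-B, HLA-E and TAP1 rose in WT cells of both series and in both knockouts, and NLRC5 and HLA-F passed the test in none of these. In DAXX-series WT cells 5 of 9 rose (HLA-B, HLA-E, B2M, TAP1 and TAPBP) and TAP2 fell, beside 29.6% of all genes called higher and 30.6% lower. In ATRX-series WT cells 4 of 9 rose (HLA-B, HLA-C, HLA-E and TAP1) and 0 of 9 fell, beside 31.7% and 29.8%. Without WT control replicate 3 of that series TAPBP was called higher (0.42, edgeR, adjusted p = 0.0123) and TAP2 lower (-0.25, adjusted p = 0.0439). In DAXX_KO 5 of 9 rose and 0 of 9 fell, beside 26.8% and 27.8%, while TAP2 was called lower with scaling by library totals alone (-0.26, edgeR, adjusted p = 0.0372) and without DAXX_KO etoposide replicate 2 (-0.28, adjusted p = 0.0224). In ATRX_KO 5 of 9 rose (HLA-B, HLA-C, HLA-E, TAP1 and TAPBP) and TAP2 fell, beside 24.3% and 25.2%. The medians of the 9 genes in these comparisons were 0.53, 0.39, 0.59 and 0.49, and those of all genes 0.02, 0.07, -0.0037 and 0.03.

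**Figure D2:**
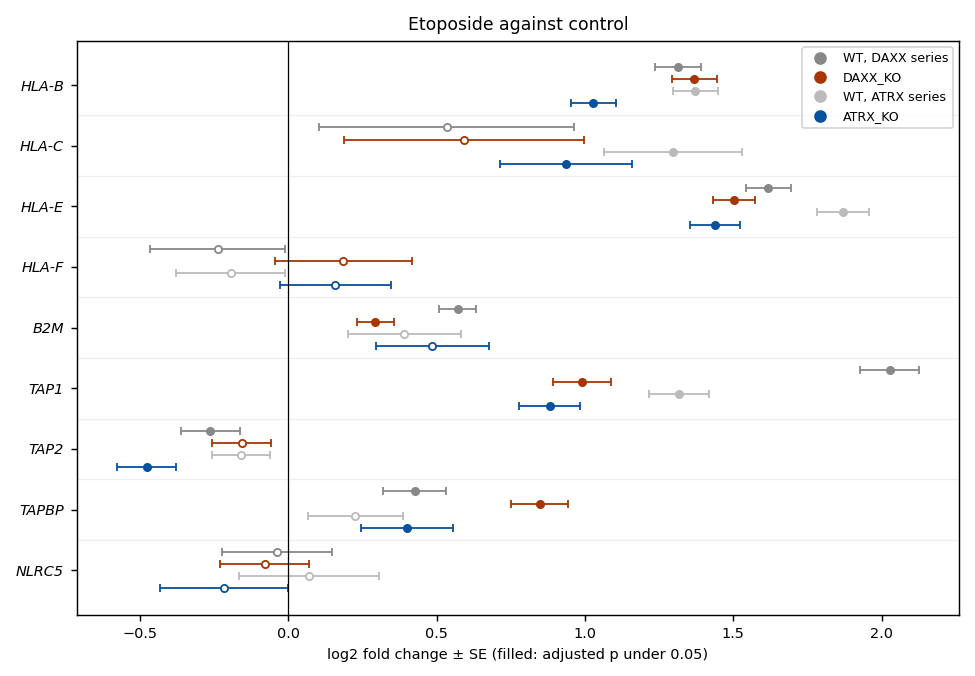
Log2 fold change with etoposide against control for each MHC class I gene, with the standard error, in WT cells of both series and in DAXX_KO and ATRX_KO cells. Filled points passed an adjusted p of 0.05 (edgeR). The values of TAP1 spread from 0.88 in ATRX_KO to 2.03 in DAXX-series WT cells, while all 4 values of NLRC5 were open and within 0.22 of 0.

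Among the heavy chains, HLA-B, a classical and highly polymorphic chain, was read most. In the DAXX series it lay at 91.8, 85.7 and 83.0 CPM in WT control libraries and at 154, 149.9 and 139 CPM in DAXX_KO control libraries. With etoposide it lay at 211, 209 and 208 CPM in WT and at 366, 436 and 338 CPM in DAXX_KO. The 4 groups did not overlap, and they ordered as WT control, DAXX_KO control, WT etoposide and DAXX_KO etoposide. The knockout difference was 0.80 ± 0.079 on the log2 scale without drug (edgeR, adjusted p = 3.71e-09) and 0.85 ± 0.075 with it (adjusted p = 4.85e-10). The rise with etoposide was 2.49-fold in WT and 2.58-fold in DAXX_KO, and their difference did not pass the test (0.05 ± 0.11, edgeR, adjusted p = 0.808).

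The other series gave HLA-B at 143, 135 and 145 CPM in WT control libraries and at 149, 178 and 175 CPM in ATRX_KO. With etoposide the WT libraries held 348, 357 and 359 CPM and the ATRX_KO libraries 323, 326 and 351 CPM. The knockout was thus slightly higher without drug (0.25 ± 0.076, edgeR, adjusted p = 0.0115) and overlapped WT with it (-0.09 ± 0.075, adjusted p = 0.326). The call without drug was lost without WT control replicate 2 (0.23, adjusted p = 0.0614) or ATRX_KO control replicate 2 (0.20, adjusted p = 0.0639).

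HLA-E, a chain with little polymorphism that presents leader peptides of other class I chains to NK cell receptors, had the widest range of the 9 genes, 5.68-fold between its lowest and highest group mean. It lay at 47.6, 45.6 and 52.9 CPM in DAXX-series WT control libraries and at 104, 95.7 and 94.4 CPM in DAXX_KO. With etoposide it reached 148, 148 and 139 CPM in WT and 263, 273 and 293 CPM in DAXX_KO. DAXX_KO libraries were above WT libraries at either treatment, by 2.05-fold without drug (1.04 ± 0.076 on the log2 scale, edgeR, adjusted p = 1.42e-11) and by 1.90-fold with it (0.92 ± 0.069, adjusted p = 2.50e-11). In the ATRX series the WT control libraries held 43.8, 52.9 and 53.6 CPM and the ATRX_KO control libraries 84.7, 92.3 and 86.5 CPM. With etoposide they held 173, 185 and 176 CPM in WT and 214, 238 and 244 CPM in ATRX_KO. The ATRX_KO difference was 0.81 ± 0.086 without drug (edgeR, adjusted p = 1.32e-07) and 0.38 ± 0.082 with it (adjusted p = 0.000636), and in each case the groups did not overlap.

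HLA-C, another classical chain, was read far less than HLA-B and varied more between libraries of a group. It rose with etoposide in ATRX-series WT cells, from 9.87, 11.6 and 11.1 CPM to 26.6, 28.7 and 22.5 CPM (1.30 ± 0.23, edgeR, adjusted p = 0.000243). In ATRX_KO it went from 12.8, 19.8 and 10.2 CPM to 19.4, 27.2 and 33.0 CPM, where the groups overlapped by 1 library (0.94 ± 0.22, adjusted p = 0.00314). In the DAXX_KO etoposide libraries it lay at 16.4, 31.9 and 10.4 CPM, and no comparison of the DAXX series passed the test for HLA-C in the 4-group model. Fitted on the compared groups alone, its rise with etoposide in DAXX-series WT cells passed (0.56, edgeR, adjusted p = 0.0312, beside 0.53 ± 0.43, adjusted p = 0.317, in the 4-group model). In DAXX_KO the value for etoposide was 0.59 ± 0.40 (edgeR, adjusted p = 0.252), and it passed without DAXX_KO etoposide replicate 3, the lowest (0.90, adjusted p = 0.0356), while without replicate 2, the highest, it was 0.042. Heavy chain genes share long near-identical stretches, so that the counting can assign reads of 1 gene to another. With HLA-B and HLA-C counts summed before the fit, the sum was higher in DAXX_KO without drug (0.76, edgeR, adjusted p = 1.87e-08) and rose with etoposide in DAXX-series WT cells (1.25, adjusted p = 7.52e-13). HLA-F, a chain that travels to the surface with or without peptide, lay between 4.65 and 8.997 CPM in all 24 libraries. It was lower in ATRX_KO without drug, at 5.05, 5.52 and 6.09 CPM beside 7.31, 8.85 and 8.997 CPM in WT (-0.59 ± 0.18, edgeR, adjusted p = 0.0134), and this call was lost without ATRX_KO control replicate 1 (-0.52, adjusted p = 0.0568).

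**Figure D3:**
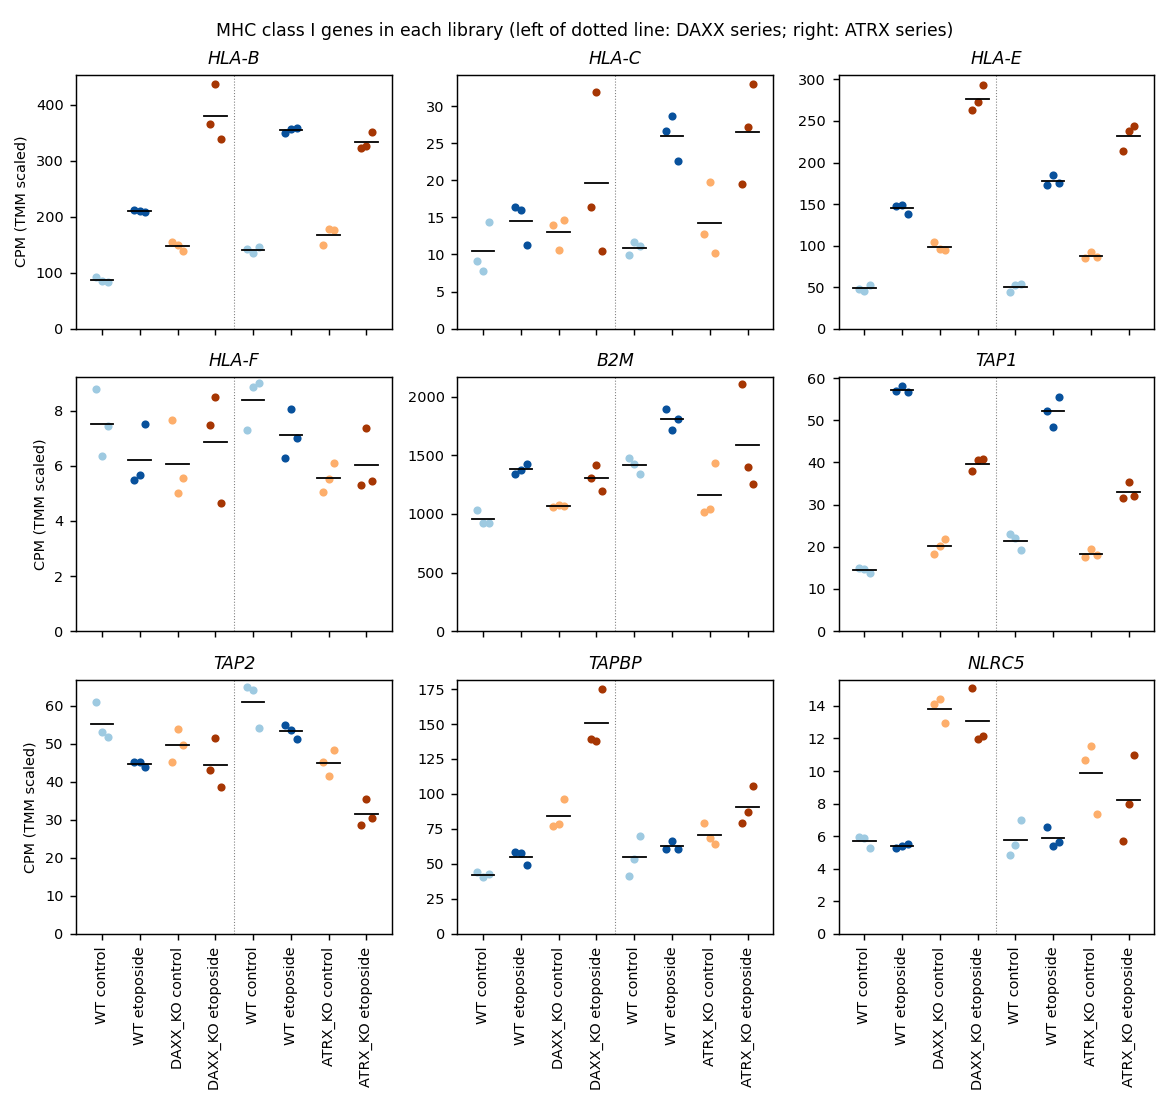
Level of each MHC class I gene in every library, in TMM-scaled CPM on axes that start at 0. Points are single libraries, black lines are means of 3 libraries, and the dotted line separates the DAXX series from the ATRX series. HLA-B and HLA-E stepped up with etoposide in each genotype, TAP1 was highest in the WT etoposide libraries, and NLRC5 was higher in DAXX_KO than in WT at either treatment.

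B2M, the invariant light chain of every class I molecule, was the most abundant of the 9 genes. It lay at 1032, 919 and 926 CPM in DAXX-series WT control libraries and at 1060.3, 1079.9 and 1064 CPM in DAXX_KO. With etoposide it lay at 1341, 1377 and 1426 CPM in WT and at 1303, 1416 and 1194 CPM in DAXX_KO. B2M rose with etoposide in both WT (0.57 ± 0.062, edgeR, adjusted p = 1.17e-08) and DAXX_KO (0.29 ± 0.062, adjusted p = 0.000245), the second of which was lost with all 24 libraries in 1 model (0.29, adjusted p = 0.118). The knockout was higher by 1.14-fold without drug (0.19 ± 0.062 on the log2 scale, edgeR, adjusted p = 0.0131). That call was lost in the same model (0.19, adjusted p = 0.329), with DESeq2 (0.15, adjusted p = 0.0518) and without WT control replicate 2 (0.16, adjusted p = 0.0656) or DAXX_KO control replicate 2 (0.18, adjusted p = 0.0512). Among ATRX-series libraries B2M went from 1478, 1429 and 1344 CPM to 1895, 1716 and 1807 CPM in WT cells, without overlap (0.39 ± 0.19, edgeR, adjusted p = 0.102). ATRX_KO libraries of 1 group differed widely, at 1013, 1042 and 1434 CPM without drug and 2108, 1401 and 1257 CPM with it. With etoposide ATRX_KO overlapped WT (-0.19 ± 0.19, edgeR, adjusted p = 0.456). That difference was -0.44 (adjusted p = 0.0190) without ATRX_KO etoposide replicate 1, the highest of them, and -0.042, not past the test, without replicate 3, so that single libraries decide it. Without replicate 1 the WT change also passed the test (0.38, adjusted p = 0.0154), as it did with all 24 libraries in 1 model (0.37, adjusted p = 0.0374), with at least 10 counts required in every library (0.46, adjusted p = 0.0422) and on the compared groups alone (0.39, adjusted p = 1.43e-08). The change with etoposide in ATRX_KO was 0.49 ± 0.19 (edgeR, adjusted p = 0.0591), and it passed with all 24 libraries in 1 model (0.50, adjusted p = 0.00907). Of 12 fits that left out 1 library, 2 also passed. Their values ran from 0.22 without ATRX_KO etoposide replicate 1 to 0.66 without ATRX_KO control replicate 3, so that single libraries decide this change too.

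TAP1, the transporter subunit that interferon and p53 are known to induce, was in each series highest in WT cells with etoposide. Among DAXX-series libraries it went from 15.03, 14.6 and 13.7 CPM to 56.9, 58.0 and 56.6 CPM in WT cells, a 4.08-fold rise (2.03 ± 0.099 on the log2 scale, edgeR, adjusted p = 1.69e-15). In DAXX_KO it went from 18.3, 20.1 and 21.8 CPM to 37.9, 40.6 and 40.7 CPM, a 1.98-fold rise (0.99 ± 0.098, adjusted p = 3.04e-09). DAXX_KO thus started above WT (0.51 ± 0.11, edgeR, adjusted p = 0.000314) and ended below it (-0.53 ± 0.088, adjusted p = 1.39e-05), and at neither treatment did the groups overlap. The difference between the rises was tested as an interaction and was -1.04 ± 0.14 (edgeR, adjusted p = 8.82e-06).

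In the ATRX series TAP1 went from 23.0, 22.2 and 19.3 CPM to 52.3, 48.5 and 55.5 CPM in WT cells (1.32 ± 0.10, edgeR, adjusted p = 3.00e-10). In ATRX_KO it went from 17.5, 19.6 and 18.1 CPM to 31.5, 35.5 and 32.1 CPM (0.88 ± 0.10, adjusted p = 3.75e-07). ATRX_KO overlapped WT without drug (-0.23 ± 0.11, edgeR, adjusted p = 0.0956), passed the test there without WT control replicate 3 (-0.30, adjusted p = 0.0433) and lay below it with etoposide (-0.66 ± 0.097, adjusted p = 9.87e-06). The TAP1 gene overlaps PSMB9 and the long noncoding RNA gene PSMB8-AS1 on the other strand in the GRCh37 annotation. PSMB8-AS1 (chr6:32811855-32814277) covers the 3′ end of TAP1, and whether the counting used strand was not given in the sources used here. With etoposide PSMB8-AS1 rose in ATRX_KO (0.98 ± 0.26, edgeR, adjusted p = 0.00333), and its part in the TAP1 counts was not tested. PSMB9, an immunoproteasome subunit, was higher in DAXX_KO without drug (0.50 ± 0.11, edgeR, adjusted p = 0.000374) and changed with etoposide by 0.28 in DAXX-series WT cells. In ATRX_KO, as for TAP1, PSMB9 lay below WT with etoposide (-0.60 ± 0.11, edgeR, adjusted p = 7.03e-05). Unlike TAP1 it fell with etoposide in ATRX_KO (-0.45 ± 0.10, adjusted p = 0.0012), and its interaction in that series was -0.57 ± 0.15 (adjusted p = 0.0111). In the DAXX series the PSMB9 interaction did not pass the test (-0.17 ± 0.15, edgeR, adjusted p = 0.519).

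TAP2, the partner of TAP1 in the transporter, was called higher with etoposide in no genotype. It lay at 61.1, 53.2 and 51.7 CPM in DAXX-series WT control libraries and at 45.3, 45.1 and 43.8 CPM with etoposide (-0.26 ± 0.10, edgeR, adjusted p = 0.0262). This fall was lost without WT control replicate 1 (-0.19, adjusted p = 0.151), WT etoposide replicate 2 (-0.26, adjusted p = 0.0609) or replicate 3 (-0.26, adjusted p = 0.0640), with DESeq2 (-0.25, adjusted p = 0.0832), and with at least 10 counts required in every library (-0.19, adjusted p = 0.0975). DAXX_KO did not differ from WT by the test at either treatment (-0.12 ± 0.099 and -0.02 ± 0.10). ATRX_KO held less TAP2 than WT, at 45.1, 41.6 and 48.3 CPM beside 65.0, 64.1 and 54.1 CPM without drug (-0.44 ± 0.098, edgeR, adjusted p = 0.00096). With etoposide ATRX_KO fell further, to 28.7, 35.3 and 30.4 CPM beside 54.9, 53.6 and 51.2 CPM in WT (-0.76 ± 0.10, adjusted p = 2.46e-06).

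Since both proteins are needed for a working transporter, the ratio of their tags was taken in each library. TAP1 stood at 0.246, 0.275 and 0.265 of TAP2 in DAXX-series WT control libraries and at 1.26, 1.29 and 1.29 with etoposide. In DAXX_KO the ratio went from 0.406, 0.373 and 0.438 to 0.882, 0.788 and 1.06. In the ATRX series the means were 0.352 ± 0.0057 and 0.980 ± 0.093 in WT cells and 0.411 ± 0.052 and 1.05 ± 0.046 in ATRX_KO (SD, n = 3). All control libraries of both series thus held less than 0.471 TAP1 tags per TAP2 tag, and all etoposide libraries more than 0.788.

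**Figure D4:**
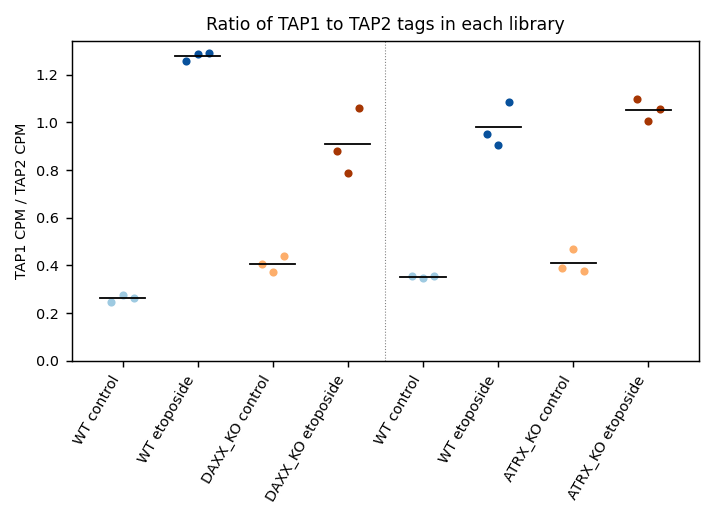
Ratio of TAP1 to TAP2 in TMM-scaled CPM in each library. Points are single libraries and black lines means of 3, with the DAXX series left of the dotted line and the ATRX series right of it. Every etoposide group lay above every control group, and DAXX-series WT cells spanned the most, from a mean of 0.262 to 1.28.

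TAPBP, the tapasin gene, was higher in DAXX_KO at either treatment. It lay at 44.04, 40.6 and 42.5 CPM in WT control libraries and at 76.8, 78.5 and 96.6 CPM in DAXX_KO (1.02 ± 0.10, edgeR, adjusted p = 1.12e-08). With etoposide it lay at 58.5, 57.5 and 49.5 CPM in WT and at 139, 138 and 175 CPM in DAXX_KO (1.44 ± 0.10, adjusted p = 1.59e-11). The 2.71-fold difference with drug was the widest that any of the 9 genes showed between a knockout and WT. TAPBP in the ATRX series spread over 41.6, 53.8 and 69.6 CPM in WT control libraries, beside 79.3, 68.2 and 64.0 CPM in ATRX_KO (0.36 ± 0.16, edgeR, adjusted p = 0.0880). Without WT control replicate 3, the highest of them, the ATRX_KO difference passed the test (0.56, adjusted p = 0.00276), and without WT control replicate 1, the lowest, it was 0.20 and did not pass. With etoposide ATRX_KO held 79.0, 87.2 and 105.8 CPM beside 60.6, 66.4 and 60.3 CPM in WT (0.53 ± 0.16, adjusted p = 0.0135). The rise of TAPBP with etoposide in ATRX_KO (0.40 ± 0.16, edgeR, adjusted p = 0.0482) was called at the edge of the threshold. It was lost in 8 of 12 fits that left out 1 library, whose values ran from 0.27 without ATRX_KO etoposide replicate 3 to 0.49 without ATRX_KO etoposide replicate 1, and the fits that kept it were those without WT control replicate 1 or 3 or ATRX_KO control or etoposide replicate 1.

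TAPBP lies close to DAXX, the gene that was cut, with ZBTB22 between them. On GRCh37 TAPBP spans chr6:33267471-33282061, ZBTB22 chr6:33282183-33285719 and DAXX chr6:33286335-33290793, all on the minus strand. The start of TAPBP lies at -8.73 kb from that of DAXX. TAP1 and TAP2 start at -469 kb and -484 kb, HLA-B at -1956 kb and HLA-C at -2051 kb, and HLA-E and HLA-F further away on the same side. TAP1 spans chr6:32812986-32821593 and TAP2 chr6:32789610-32806516, both on the minus strand, B2M chr15:45003556-45011049 on the plus strand and NLRC5 chr16:57023397-57117443 on the plus strand. Of the 32 tested genes that start within 500 kb of DAXX, TAP1, TAP2 and TAPBP included, 15 were higher and 5 lower in DAXX_KO without drug, with a median of 0.31, beside 26.9% and 26.7% of all genes. In ATRX_KO 3 of 31 were higher and 7 lower, with a median of -0.13, beside 20.8% and 20.9% of all genes. The neighbours include class II genes such as HLA-DMA, HLA-DMB, HLA-DPA1 and HLA-DPB1. B3GALT4, a galactosyltransferase gene at -45.9 kb, was higher in DAXX_KO (3.01 ± 0.58, edgeR, adjusted p = 9.59e-05), and RGL2, at -24.1 kb, was higher with etoposide (1.957 ± 0.19, adjusted p = 1.88e-09). Whether the site of the cut bears on TAPBP in the DAXX_KO clone was not tested.

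**Figure D5:**
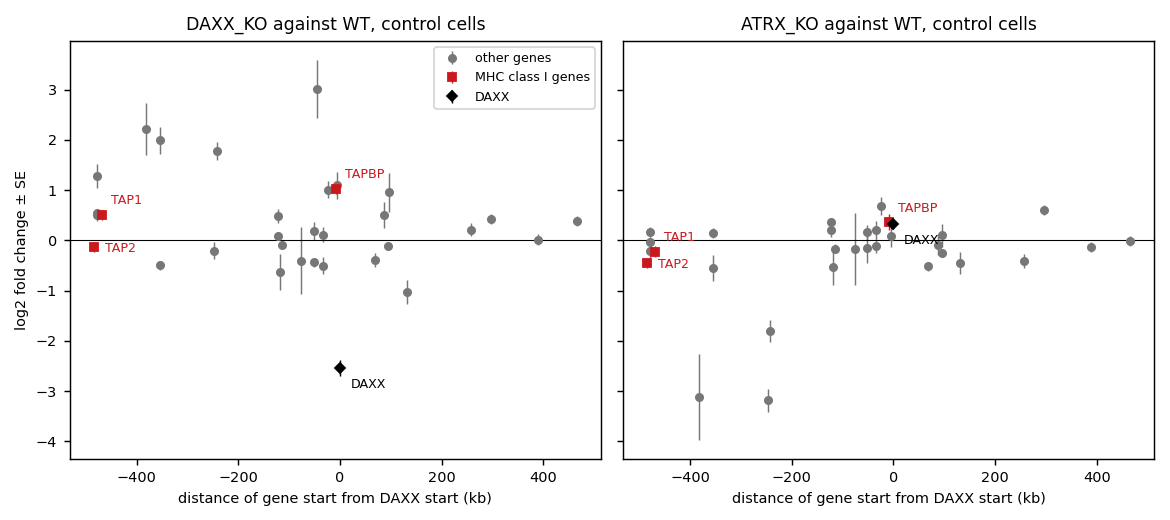
Log2 fold change with standard error of the genes that start within 500 kb of DAXX, by distance of their start from the start of DAXX, in DAXX_KO (left) and ATRX_KO (right) against WT without drug. Red squares are MHC class I genes, the black diamond is DAXX and grey points are other genes. TAPBP stood at 1.02 in DAXX_KO and at 0.36 in ATRX_KO.

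NLRC5, which drives class I promoters together with RFX and NF-Y proteins, was low in these cells and higher in DAXX_KO. It lay at 5.95, 5.89 and 5.25 CPM in DAXX-series WT control libraries and at 14.1, 14.4 and 13.0 CPM in DAXX_KO (1.31 ± 0.16, edgeR, adjusted p = 2.09e-07). With etoposide it lay at 5.25, 5.41 and 5.497 CPM in WT and at 15.1, 11.9 and 12.1 CPM in DAXX_KO (1.27 ± 0.17, adjusted p = 5.12e-07). At either treatment the groups did not overlap. In the ATRX series the WT control libraries held 4.82, 5.48 and 6.96 CPM and the ATRX_KO control libraries 10.7, 11.5 and 7.35 CPM (0.78 ± 0.22, edgeR, adjusted p = 0.00804). With etoposide the WT libraries held 6.55, 5.37 and 5.66 CPM and ATRX_KO 5.72, 7.99 and 11.0 CPM, which overlapped (0.49 ± 0.23, adjusted p = 0.0856), and this passed the test without ATRX_KO etoposide replicate 1 (0.69, adjusted p = 0.0136) and was 0.23, not past the test, without replicate 3. In WT cells etoposide changed NLRC5 by -0.04 ± 0.18 among DAXX-series libraries and 0.07 ± 0.24 among those of the ATRX series (log2), neither past the test.

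Whether the rise with etoposide differed between knockout and WT was tested as an interaction. In the DAXX series TAPBP was called higher, and TAP1 and B2M lower, beside 8.63% of all genes called higher and 5.98% lower. For B2M the interaction was -0.28 ± 0.088 (edgeR, adjusted p = 0.0324), and it kept its call only without WT control replicate 1, DAXX_KO control replicate 1 or 3, or DAXX_KO etoposide replicate 2. Without any other 1 library its value ran from -0.29 to -0.21, with adjusted p from 0.0559 to 0.106. For TAPBP it was 0.42 ± 0.14 (adjusted p = 0.0498), kept only without DAXX_KO control replicate 3 or DAXX_KO etoposide replicate 1 or 2, and otherwise from 0.31 to 0.47 with adjusted p from 0.0504 to 0.135. TAP1 kept its call in all 12 such fits, between -1.11 and -0.98. With the replicate number as a block the calls of B2M (-0.28, edgeR, adjusted p = 0.0553) and TAPBP (0.42, adjusted p = 0.0512) were lost, as they were with all 24 libraries in 1 model (-0.27, adjusted p = 0.471, and 0.43, adjusted p = 0.215). The TAPBP call was also lost with scaling by library totals alone (0.31, adjusted p = 0.155) and with at least 10 counts required in every library (0.39, adjusted p = 0.0654).

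In the ATRX series 0 of 9 genes were called higher in the interaction and 3 of 9 lower, HLA-B, HLA-E and TAP1, beside 8.53% and 7.93% of all genes. Their values were -0.34 ± 0.11 (edgeR, adjusted p = 0.0313), -0.43 ± 0.12 (adjusted p = 0.0158) and -0.44 ± 0.14 (adjusted p = 0.0425). HLA-E lost its call without WT control replicate 1 (-0.35, adjusted p = 0.0606) or WT etoposide replicate 2 (-0.38, adjusted p = 0.0660). HLA-B kept its call only without ATRX_KO control replicate 1 or ATRX_KO etoposide replicate 1 or 3, and TAP1 only without WT control replicate 1, ATRX_KO control replicate 1 or ATRX_KO etoposide replicate 2. Without any other 1 library HLA-B ran from -0.36 to -0.29 (adjusted p from 0.0563 to 0.104) and TAP1 from -0.46 to -0.36 (adjusted p from 0.0518 to 0.140). Without WT etoposide replicate 2, 0 of 9 genes were called. The TAP1 call was also lost with RLE size factors (-0.42, edgeR, adjusted p = 0.0545), library totals alone (-0.40, adjusted p = 0.0684), DESeq2 (-0.41, adjusted p = 0.0590), no filter on low counts (-0.43, adjusted p = 0.0759) and the replicate block (-0.44, adjusted p = 0.0609). That of HLA-B was lost with library totals alone (-0.31, adjusted p = 0.0503).

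The knockouts were compared with each other by the difference of their effects, each against the WT libraries of its own series. Without drug the DAXX_KO effect exceeded the ATRX_KO effect at HLA-B (0.55 ± 0.11, edgeR, adjusted p = 0.000203), TAP1 (0.73 ± 0.14, adjusted p = 0.000133) and TAPBP (0.66 ± 0.21, adjusted p = 0.0183), and 0 of 9 genes were called lower. Over the 16674 genes of this fit 16.9% were called higher and 17.1% lower. The TAPBP call was lost without DAXX_KO control replicate 3 (0.54, adjusted p = 0.0605), WT control replicate 3 of the ATRX series (0.44, adjusted p = 0.0582) or ATRX_KO control replicate 3 (0.60, adjusted p = 0.0531). With etoposide 5 of 9 were called higher, beside 17.6% of all genes, and 0 of 9 lower, beside 16.7%. These were HLA-B (0.93 ± 0.11, edgeR, adjusted p = 2.95e-08), TAPBP (0.89 ± 0.21, adjusted p = 0.0019), NLRC5 (0.76 ± 0.29, adjusted p = 0.0404), TAP2 (0.72 ± 0.15, adjusted p = 0.000212) and HLA-E (0.53 ± 0.11, adjusted p = 0.000204). The NLRC5 call was lost in 8 of 24 fits that left out 1 library, with values from 0.56 to 0.78 and adjusted p from 0.0552 to 0.122: those without DAXX-series WT etoposide replicate 1, 2 or 3, DAXX_KO etoposide replicate 1, ATRX-series WT etoposide replicate 1 or 3, or ATRX_KO etoposide replicate 1 or 2. It was also lost with DESeq2 (0.76, adjusted p = 0.0624).

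The WT libraries of the series were not alike. Without drug HLA-B, B2M and TAP1 were higher in ATRX-series WT cells than in those of the DAXX series, by 0.70 ± 0.080 (edgeR, adjusted p = 3.89e-07), 0.57 ± 0.15 (adjusted p = 0.0162) and 0.58 ± 0.10 (adjusted p = 0.000236). That is 3 of 9 genes higher and 0 of 9 lower, beside 7.16% of all genes called higher and 5.97% lower. HLA-E differed by 0.05 ± 0.083, NLRC5 by 0.01 ± 0.21. In DAXX_KO control cells the mean levels were 148 CPM for HLA-B, 1068 CPM for B2M and 20.1 CPM for TAP1. ATRX-series WT control cells held 141, 1417 and 21.5 CPM of these genes. What set the series apart was not tested.

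Other genes that make or load class I peptides numbered 14, and all 14 were tested. In DAXX_KO without drug 5 were higher and 3 lower, with a median of 0.13, beside 26.9% and 26.7% of all genes. In ATRX_KO 6 were higher and 0 lower, with a median of 0.22, beside 20.8% and 20.9%. TAPBPL, a second peptide editor related to tapasin, was higher in both knockouts, by 1.44 ± 0.19 in DAXX_KO (edgeR, adjusted p = 3.75e-07) and 1.54 ± 0.23 in ATRX_KO (adjusted p = 1.48e-05). PSMB8, a catalytic immunoproteasome subunit, was higher in DAXX_KO by 0.54 ± 0.095 (adjusted p = 3.05e-05). With etoposide 9 of 14 rose and 1 fell in DAXX-series WT cells, beside 29.6% and 30.6% of all genes, and 7 rose and 3 fell in those of the ATRX series, beside 31.7% and 29.8%. In DAXX_KO 9 rose, beside 26.8%, and in ATRX_KO 2 rose and 3 fell, with a median of 0.09, beside 24.3% and 25.2%. In the interaction 3 of 14 were called higher in the DAXX series, beside 8.63% of all genes, and 3 of 14 lower in the ATRX series, beside 7.93%.

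Of 18 factors that act on class I promoters, 8 were higher and 2 lower in DAXX_KO without drug (26.9% and 26.7% of all genes) and 7 higher and 3 lower in ATRX_KO (20.8% and 20.9%). RELB, an NF-kappa B subunit, was the furthest changed of them in both, at 1.32 ± 0.21 (edgeR, adjusted p = 6.49e-06) and 2.08 ± 0.18 (adjusted p = 2.58e-08), and its mean level was 2.92 CPM in WT control cells of the DAXX series. With etoposide RELB rose in WT cells of both series (1.89 and 1.52) in DAXX_KO (1.99) and in ATRX_KO (0.58). Its interaction was -0.94 ± 0.24 in the ATRX series (edgeR, adjusted p = 0.0121) and did not pass the test in the DAXX series (0.10 ± 0.27, adjusted p = 0.863). Of 7 interferon receptor and kinase genes, 5 fell and 1 rose with etoposide in WT cells of either series, beside 30.6% and 29.6% of all genes in the DAXX series and 29.8% and 31.7% in the ATRX series. The class I pseudogenes HLA-H, HLA-J, HLA-K and HLA-L did not pass the filter on low counts.

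Among class I like molecules, FCGRT, the heavy chain of the neonatal Fc receptor that also pairs with B2M, rose with etoposide by 3.64 ± 0.18 in DAXX-series WT cells (edgeR, adjusted p = 2.49e-15) and 2.97 ± 0.18 in those of the ATRX series (adjusted p = 1.16e-11). MR1, which presents vitamin B metabolites, rose by 1.64 and 2.05. In DAXX_KO these rises were 2.02 and 1.32, and in ATRX_KO 2.33 and 0.96.

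The genes whose log2 level most resembled that of a class I gene over the 24 libraries were sought among 10839 genes. For TAP1 they were ENSG00000224818 (Pearson r = 0.974), PHLDA3 (0.969) and TSPAN10 (0.961), and for HLA-B RRM2B (0.967), FAM88B (0.960) and NBR2 (0.954). For B2M they were RPL10P3 (0.932), JOSD2 (0.890) and LL22NC03-N64E9.1 (0.889), and for NLRC5 ACOX3 (0.931), ORAI2 (0.929) and C14orf132 (0.928). The libraries share series, clone and treatment, so that these values describe a shared pattern over groups.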

How the data were processed

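RNA of 24 U87-T libraries was sequenced as single-end QuantSeq 3′ tags. The authors aligned reads to hg19 with STAR, estimated counts per gene with RSEM on Ensembl GRCh37 annotation and tested them with DESeq2. The deposited values are expected counts given as whole numbers, with no normalization, and were used as such. Gene names matched by Ensembl ID covered 55501 of 57736 genes and 98.8% of counts. Counts were tested with edgeR 4.0.16 in R 4.3.3 (quasi-likelihood, robust, TMM scaling, filterByExpr with at least 10 counts, Benjamini-Hochberg over all genes tested, calls at 0.05), with a model of 4 groups per series and of 8 groups for differences between series. Display CPM were scaled by TMM over all libraries. A standard error was taken from the log2 fold change and its F statistic. The gene lists and members were chosen with earlier results of these data known. All 9 members were named, DAXX and ATRX served as the check of the labels, and from each other list up to 3 called genes with the largest change per comparison were eligible to be named, with any others given as side values. PSMB9 and PSMB8-AS1 are named beside TAP1 because they overlap it. The level of 1 leukocyte marker is not reported here. Likeness used log2(CPM + 0.5) of genes with a mean of at least 5 CPM.

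The labels number the replicates without naming separate cultures, while the study's reporting form describes its experiments in general as biological replicates. The p-values measure the spread between these libraries. No pair of replicates agreed within counting noise (chi-square per degree of freedom of 2.16 to 17.1 over 24 pairs). Totals of 6928950 to 13298557 counts give a floor of 0.210 to 0.402 CPM for 3 counts, and cover counting error only. Tested on simulated counts for the DAXX_KO comparison without drug (15247 genes), the test found 91 of 100 genes changed by 1 on the log2 scale and 99 of 100 changed by 2, with 11 false calls. For the ATRX_KO comparison (16371 genes) it found 93 and 97 of 100, with 10 false calls. The simulated counts had the same spread for every gene, and changed genes were drawn only from those above a set mean count. Rates for genes of wider spread or lower counts, and for the interactions, were not measured. Alternatives were other size factors, DESeq2 1.42.0, filters, a replicate block, other sets of libraries, HLA-B and HLA-C summed, and each library left out.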

Additional observations from a re-analysis of the deposited data

Results flagged for a closer look

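A response to etoposide that differed between knockout and WT by the interaction test (edgeR, adjusted p under 0.05) was found for TAP1 (-1.04), B2M (-0.28) and TAPBP (0.42) in the DAXX series and for HLA-B (-0.34), HLA-E (-0.43) and TAP1 (-0.44) in the ATRX series, all as log2 differences of the knockout's response from that of WT. TAP1 was called in both series, but its ATRX-series call was lost in 9 of 12 fits that left out 1 library and with DESeq2 (-0.41, adjusted p = 0.0590). The same test in the 24-library model found knockout effects that differed between DAXX_KO and ATRX_KO. Without drug these were HLA-B (0.55), TAP1 (0.73) and TAPBP (0.66). With etoposide they were HLA-B (0.93), HLA-E (0.53), TAP2 (0.72), TAPBP (0.89) and NLRC5 (0.76), each the DAXX_KO effect minus the ATRX_KO effect. Each effect was taken against the WT libraries of its own series, which differed at HLA-B and TAP1 without drug. The mean control level of HLA-B was 148 CPM in DAXX_KO and 168 CPM in ATRX_KO. That of TAP1 was 20.1 CPM in DAXX_KO and 18.4 CPM in ATRX_KO. With 3 libraries per group, single libraries far from the others were not sought by a test.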

How the results depend on the processing

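Of 852 gene values refitted under alternatives other than leaving out a library, 800 kept their direction and side of the threshold, 24 gained and 18 lost a call, and 10 changed sign. Scaling by library totals alone shifted the median of all genes to 0.20 in DAXX_KO without drug, -0.11 for etoposide in DAXX_KO, 0.11 in ATRX_KO with etoposide, 0.10 for etoposide in ATRX-series WT cells and 0.11 for the difference of knockout effects without drug. Under it TAP2 in DAXX_KO became 0.060 without drug and 0.055 with it, the DAXX interactions of HLA-B, HLA-C and TAP2 became -0.055, -0.050 and -0.00489, HLA-B in ATRX_KO with etoposide became 0.00414 and the HLA-C difference of knockout effects without drug 0.10. The count of ATRX interactions fell from 3 to 1 under it, and that of differences between knockout effects without drug rose from 3 to 6. With at least 10 counts in every library the etoposide response of NLRC5 in DAXX-series WT cells became 0.032, and with HLA-B and HLA-C summed HLA-C became -0.085 in ATRX_KO with etoposide and 0.50 in the difference without drug, which is the value of the sum. The cause of the other changes was not tested. The comparison of the WT libraries of the series was not refitted. Replicate numbers did not pair the libraries (correlations of -0.209 to 0.0512 over 36 pairs); with the replicate block the DAXX interaction count was 1 (TAP1; B2M and TAPBP were lost) in place of 3, as with all 24 libraries in 1 model.

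Of 1512 gene values from fits that left out 1 library, 1403 gene values kept direction and side, 18 gained and 64 lost a call, and 27 changed sign. The interaction count ran from 1 to 3 in the DAXX series and from 0 to 3 in the ATRX series. DAXX interactions ran from -0.047 to 0.14 for HLA-B, -0.49 to 0.37 for HLA-C, -0.010 to 0.21 for TAP2 and -0.16 to 0.029 for NLRC5. DAXX_KO with etoposide ran from -0.12 to 0.74 for HLA-C, -0.035 to 0.37 for HLA-F and -0.14 to 0.082 for TAP2. ATRX interactions ran from -0.16 to 0.28 for B2M and -0.023 to 0.34 for TAPBP. HLA-C in ATRX_KO with etoposide ran from -0.15 to 0.21, the etoposide response of NLRC5 in ATRX-series WT cells from -0.045 to 0.22 and that of HLA-F in ATRX_KO from -0.019 to 0.24. The DAXX_KO effect minus the ATRX_KO effect ran from -0.22 to 0.28 for HLA-C without drug, -0.18 to 0.68 for HLA-C with etoposide and -0.066 to 0.33 for B2M with etoposide. HLA-F, NLRC5 and HLA-C had the fewest counts, from 38, 41 and 66 in a library, and the part of depth in the spread of their values was not tested.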

Other observations

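MHC class II genes, which present peptides from outside the cell and are usually confined to professional antigen presenting cells, held called members in both knockouts. In DAXX_KO without drug 6 of 9 tested class II genes were higher and 0 lower, with a median log2 fold change of 1.56, beside 26.9% and 26.7% of all genes. In ATRX_KO 0 were higher and 8 lower, with a median of -1.99, beside 20.8% and 20.9%. The mean level of HLA-DRB1, a beta chain of HLA-DR, was 33.3 CPM in WT and 89.0 CPM in DAXX_KO, and 35.7 CPM in WT and 8.47 CPM in ATRX_KO. HLA-DPB1, a beta chain of HLA-DP, was lower in ATRX_KO (-3.18 ± 0.23, edgeR, adjusted p = 2.96e-10) and did not pass the test in DAXX_KO, where it differed by -0.20, the same sign. The difference between the knockout effects was 3.53 for HLA-DRB1 and 2.98 for HLA-DPB1. With etoposide 5 of the 9 rose and 1 fell in DAXX-series WT cells and 4 rose and 1 fell in those of the ATRX series, with medians of 0.61 and 0.49, beside 29.6% and 30.6% and beside 31.7% and 29.8% of all genes. In DAXX_KO 4 rose and 1 fell, and in ATRX_KO 3 rose and 1 fell, with medians of 0.56 and 0.30, beside 26.8% and 27.8% and beside 24.3% and 25.2%. The member that fell in each was CIITA. CIITA, the class II regulator related to NLRC5, fell with etoposide in WT cells of both series (-1.64 and -2.10), in DAXX_KO (-0.98) and in ATRX_KO (-0.87).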
